A study of Coturnix japonica and Phalacrocorax auritus with 29 samples.

Results

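The protein components of the cytosolic ribosome were followed at the RNA level in the livers of embryos of Japanese quail (JQ, Coturnix japonica) and double-crested cormorant (DCCO, Phalacrocorax auritus), from eggs injected with the organophosphate insecticide chlorpyrifos or with solvent alone. The members were chosen by a name rule, with earlier results of these data known. The rule takes every feature name that begins with ribosomal protein L or S, or with 40S or 60S ribosomal protein, without the kinase and mitochondrial names. They numbered 99 of 22845 names in the quail table and 99 of 21547 names in the cormorant table. The tables shared 96 of them, the 102 distinct names stood for 84 proteins, and 13 quail and 12 cormorant kinase names were left out. Of the names with a gene symbol form, 69 of 72 were found in the RefSeq annotation of quail. The counts were high enough to be tested for 92 members in quail and 90 in cormorant, and for 93 when both species were fitted together.

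The RNA came from individual livers taken on embryo day 9 in quail, except that control replicate 5 carries the age label day 16, and on day 16 in cormorant. Quail had 5 control, 5 medium dose and 5 high dose livers, and cormorant had 4, 5 and 5. All eggs were injected into the air cell before incubation. The controls received the solvent dimethyl sulfoxide (DMSO), and the exposed groups received chlorpyrifos at doses labelled medium and high. Doses of 0.4, 4 and 40 µg of chlorpyrifos per gram egg appear in the labels as nominal values, but none is tied to a group name, and no strain, genotype or sex is given. Libraries were made from individual livers, so the spread between replicates holds that between embryos. In whole liver RNA, fewer cells of a type and less RNA per cell cannot be told apart.

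A ribosome is made of a small (40S) and a large (60S) subunit, each a scaffold of ribosomal RNA carrying a set of proteins, most of them present once per ribosome. The mRNAs of these proteins begin with a terminal oligopyrimidine tract, through which the kinase mTOR sets how much of them is translated, so their RNA level and their rate of synthesis need not move together. In the liver, which exports most of the plasma proteins, ribosomes are abundant, and their assembly uses many nucleolar factors. The P stalk proteins RPLP0, RPLP1 and RPLP2 form the flexible arm of the large subunit that recruits translation factors. Free RPL5 and RPL11, in a complex with 5S ribosomal RNA, can bind the p53 ligase MDM2 in mammals. Several members are named as paralogues of a core protein, such as RPL22L1, RPL26L1, RPL3L and RPS27L, the last of these a p53 target in human cells.

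Library totals ran from 11548222 to 27778954 reads assigned to names in quail and from 9890108 to 21976904 in cormorant. The members together took 4.71% ± 0.105 (SD, n = 5) of the counts in quail controls, 4.84% ± 0.383 (n = 5) in the medium dose group and 5.30% ± 0.376 (n = 5) in the high dose group. The 5 control shares were 4.65, 4.71, 4.87, 4.74 and 4.60%, those of the medium dose were 4.29, 4.70, 5.34, 4.98 and 4.90%, and those of the high dose were 5.45, 4.72, 5.67, 5.52 and 5.14%. High dose replicate 2 lay within the control range and the other 4 high dose libraries lay above it. On the TMM scale used for the tests (counts per library scaled for composition, CPM), the summed members overlapped more. They read 46287, 46267, 50619, 49168 and 45997 CPM in quail controls and 46197, 47156, 59360, 58364 and 51249 CPM at the high dose, with high dose replicates 1 and 2 inside the control range and replicate 5 just above it. In cormorant the share was 7.13% ± 1.15 (n = 4) in controls, 7.18% ± 0.291 (n = 5) at the medium dose and 7.14% ± 0.852 (n = 5) at the high dose. The cormorant control values were 8.70, 5.97, 6.79 and 7.06%, against 7.18, 7.61, 6.90, 7.28 and 6.92% at the medium dose and 8.23, 7.39, 6.47, 6.10 and 7.49% at the high dose. These 3 groups overlapped, and the highest and the lowest library of the species were both controls.

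**Figure D1:**
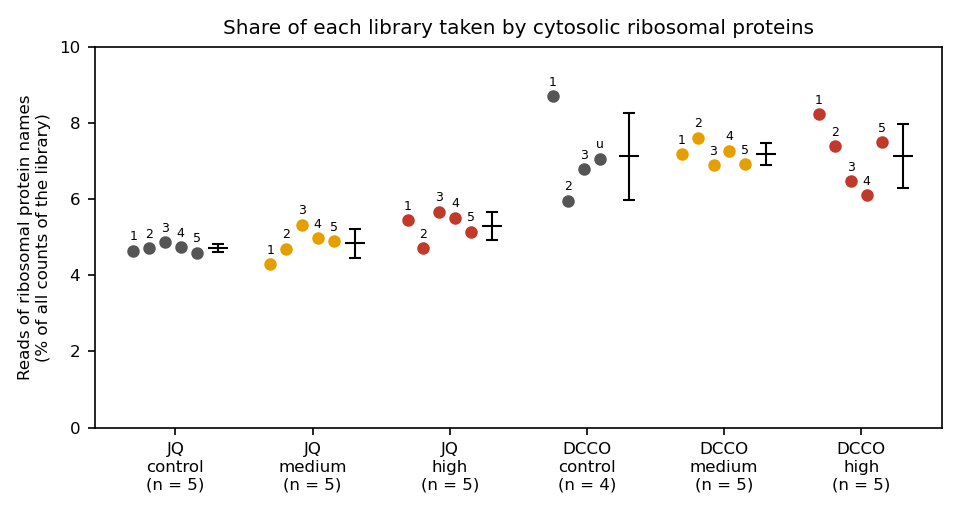
Share of all assigned reads in each library that fell on cytosolic ribosomal proteins, in percent, by species and dose group. Points are libraries and bars are the mean ± SD of 4 or 5 libraries. Control replicate 1 (8.70%) and control replicate 2 (5.97%) of cormorant mark the widest spread within a group.

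The share rests on the whole library, and in quail at the high dose abundant hepatocyte transcripts moved the other way. Albumin, the defining hepatocyte product and the most abundant feature in all 29 libraries, took 13.6 to 17.6% of the counts in quail controls and 7.49 to 13.0% at the high dose. The marker levels in this paragraph are in CPM, the counts of a feature relative to the library total, without the TMM scaling. The summed level of the hepatocyte markers was 231060 to 261798 CPM in quail controls and 134719 to 209253 CPM at the high dose. Of the 14 hepatocyte markers tested, 8 were lower and 2 higher at an unadjusted p under 0.05, and 1 (vitronectin) passed the adjusted threshold. Over all features, 7.26% were lower and 9.35% higher at that p, and 3.56% passed the adjusted threshold in either direction. The summed bile duct markers ran from 137 to 215 CPM in controls and from 198 to 373 CPM at the high dose, and the summed gut markers from 5.32 to 18.98 CPM and from 9.88 to 94.5 CPM. At the medium dose the gut markers ran from 11.8 to 44.7 CPM. The summed erythroid, macrophage, endothelial, stellate and muscle markers of quail also overlapped between controls and high dose. In cormorant the summed hepatocyte markers overlapped between controls (145454 to 180259 CPM) and high dose (148672 to 196056 CPM), and erythroid markers ran from 3135 to 7857 CPM and from 5255 to 13156 CPM. Bile duct markers there ran from 150 to 341 CPM and from 185 to 320 CPM, and the remaining lists overlapped too. None of these marker lists had a gene at 0 in every library, and their part in the ribosomal protein values was not tested. The levels and tests that follow use CPM scaled by the trimmed mean of M values (TMM), which limits the pull of a few abundant transcripts. The 2 species were scaled separately, except in the tests of the difference between species, where all 29 libraries were scaled together.

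No member was called in quail at the high dose, where 3.56% of the 14927 features tested passed an adjusted p of 0.05 (edgeR quasi-likelihood test, Benjamini-Hochberg over all features). The fitted values lay mostly on 1 side, with 84 of 92 members above 0 against 51.4% of all features. Their median log2 fold change was 0.14, beside 0.01 over all features, and features of 100 CPM or more were above 0 in 55.0%. An unadjusted p under 0.05 was reached by 11 members with a higher level, where 9.35% of all features did so, and by 0 members with a lower level, where 7.26% did. Members are not independent of each other, and the estimates lean on the same 10 libraries. The members above the median of the controls numbered 40, 61, 87, 86 and 75 of 92 in high dose replicates 1 to 5, highest in replicates 3 and 4. Leaving out 1 library at a time gave 75 to 88 members above 0.

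**Figure D2:**
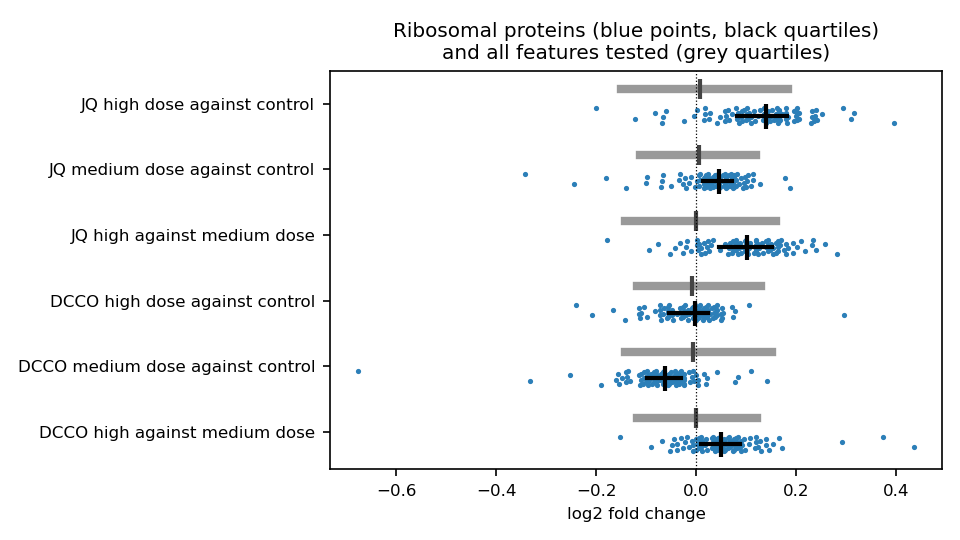
Log2 fold change of each tested member (points) in the 6 comparisons within a species. The middle range of all tested features (between the lower and upper quartile) is drawn beside it. In quail at the high dose the members had a median of 0.14 and in cormorant a median of 0.00.

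Large subunit proteins of quail had a median log2 fold change of 0.16 at the high dose, with 43 of 45 above 0 and 8 at an unadjusted p under 0.05. RPL5, which carries 5S ribosomal RNA into the large subunit, stood at 836, 829, 971, 794 and 791 CPM in the controls. Its level was 734, 911, 1008, 891 and 922 CPM at the medium dose and 935, 936, 1249, 1119 and 1012 CPM at the high dose. Control replicate 3 lay above high dose replicates 1 and 2, so the groups overlapped, and the log2 fold change at the high dose was 0.32 ± 0.11 (SE, adjusted p = 0.138 by edgeR). RPL11, its partner in that complex, had a smaller estimate of 0.17 ± 0.10 (adjusted p = 0.463 by edgeR), with 620 CPM ± 13.6 (SD, n = 5) in controls and 696 CPM ± 70.7 (n = 5) at the high dose.

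RPL36 and RPL37, small proteins of the large subunit, were the 2 of 92 members whose high dose and control libraries did not overlap. Both were higher. Of all features, 2.7% were higher and 2.2% lower without overlap, so the members did not exceed the share of all features. RPL36 read 213, 213, 246, 245 and 233 CPM in controls, 207, 261, 241, 226 and 246 CPM at the medium dose and 255, 265, 293, 288 and 251 CPM at the high dose. The lowest high dose library stood only just above the highest control, and the log2 fold change was 0.23 ± 0.08 (SE, adjusted p = 0.151 by edgeR). RPL37 read 280, 288, 309, 302 and 286 CPM in controls, 231, 360, 313, 307 and 308 CPM at the medium dose and 313, 320, 462, 381 and 339 CPM at the high dose. High dose replicate 3 was the highest library and the medium dose group spanned the control range on both sides. Its log2 fold change was 0.31 ± 0.12 (SE, adjusted p = 0.203 by edgeR). RPL23A, a protein at the exit of the nascent peptide tunnel, read 420, 466, 455, 462 and 422 CPM in controls and 448, 472, 584, 628 and 518 CPM at the high dose, with overlap at the lower end (log2 fold change 0.25 ± 0.10, adjusted p = 0.216 by edgeR). The other large subunit members with an unadjusted p under 0.05 were RPL30 (log2 fold change 0.20), RPL10A (0.29), RPL3 (0.24) and RPL6 (0.24). Their adjusted p lay between 0.235 and 0.273.

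Small subunit proteins of quail had a median log2 fold change of 0.13 at the high dose, with 34 of 37 above 0 and 2 at an unadjusted p under 0.05. Among these was 40S ribosomal protein S3, a protein at the mRNA entry channel, with a log2 fold change of 0.23 ± 0.10 (SE, adjusted p = 0.275 by edgeR). RPS27A, which is made as a fusion with ubiquitin, stood at 210 CPM ± 6.24 (SD, n = 5) in controls and 241 CPM ± 26.0 (n = 5) at the high dose, a log2 fold change of 0.20 ± 0.10 (adjusted p = 0.344). RPS23, 40S ribosomal protein S23 and 40S ribosomal protein S19 like were the 3 members of the small subunit with an estimate below 0. The 2 large subunit members below 0 were RPL38, at −0.07, and 60S ribosomal protein L17 like, at −0.06.

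**Figure D3:**
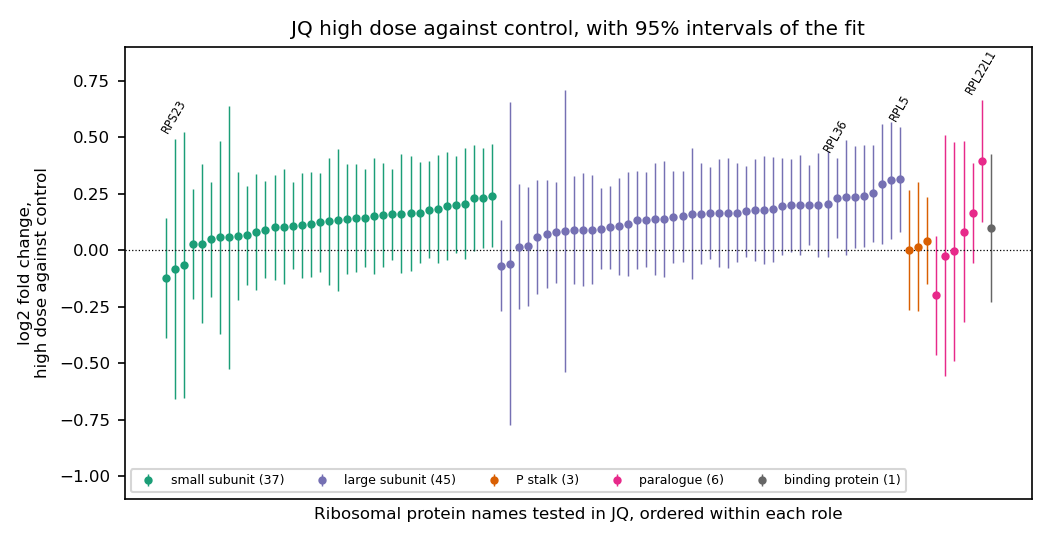
Log2 fold change of the 92 tested members in quail, high dose against control, with 95% intervals, sorted within the large subunit, small subunit, P stalk, paralogue and binding protein classes. The 11 intervals that lie above 0 belong to members with an unadjusted p under 0.05, and none has an adjusted p under 0.05.

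The P stalk proteins had the lowest median of the classes in quail, with log2 fold changes of 0.00 for RPLP0, 0.02 for RPLP1 and 0.04 for RPLP2 at the high dose. RPLP0 read 1437, 1397, 1583, 1465 and 1343 CPM in controls and 1236, 1242, 1608, 1750 and 1398 CPM at the high dose. The exposed libraries fell on both sides of the controls, and the 95% interval of the log2 fold change ran from −0.26 to 0.27. The intervals of RPLP1, from −0.27 to 0.30, and of RPLP2, from −0.15 to 0.23, were of similar width, so a change as large as the median member was within them. The difference between the P stalk and the other members was not tested.

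The 6 tested paralogues of quail held both the largest positive and the largest negative estimate among the members at the high dose. RPL22L1, a paralogue of the RNA-binding protein RPL22, read 91.5, 107, 94.0, 91.2 and 94.0 CPM in controls, 93.2, 118, 121, 118 and 92.5 CPM at the medium dose and 96.7, 116, 165, 129 and 122 CPM at the high dose. High dose replicate 3 was the highest and replicate 1 lay inside the control range. Its log2 fold change was 0.40 ± 0.13 (SE, a fold of 1.32), with an unadjusted p of 0.00671 and an adjusted p of 0.105 by edgeR. The adjusted p of RPL22L1 was 0.0429 without high dose replicate 1 and 0.0461 with DESeq2, which also gave RPL5 an adjusted p of 0.0441. RPS27L, the paralogue of RPS27, had an estimate of the opposite sign. It read 203, 179, 211, 203 and 187 CPM in controls and 159, 170, 156, 218 and 152 CPM at the high dose, where 4 libraries lay below all controls and replicate 4 lay above them (log2 fold change −0.20 ± 0.12, adjusted p = 0.463 by edgeR). RPL26L1 was classed as a paralogue by its name, although no RPL26 name was among the members. Its log2 fold change was 0.16 ± 0.10 (adjusted p = 0.481 by edgeR), and that of RPL3L, known as a muscle form in mammals, was −0.02 ± 0.25.

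At the medium dose in quail, no member and 0% of all features passed the adjusted threshold. Among all features, 329 (2.2%) were higher and 317 (2.12%) lower at an unadjusted p under 0.05, and none of the members was among them. Of the members, 74 of 92 had an estimate above 0, against 51.5% of all features, with a median log2 fold change of 0.04 beside 0.01 over all features. Features of 100 CPM or more were above 0 in 59.8%. RPL22L1 again had the smallest p (log2 fold change 0.19 ± 0.13, adjusted p = 0.999 by edgeR). The high dose was then compared with the medium dose, where 1.89% of all features and no member were called. In that comparison 82 of 92 members lay above 0, with a median of 0.10, against 49.9% of all features and 49.7% of those at 100 CPM or more. RPL36, at 0.19 ± 0.08 (adjusted p = 0.313), and RPL5, at 0.23 ± 0.11 (adjusted p = 0.369), were the members with an unadjusted p under 0.05, both higher, where 7.69% of all features were higher and 5.69% lower. These comparisons share libraries, so their estimates are not independent of each other.

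In cormorant at the high dose no member was called, where 0.0343% of the 14579 features tested passed. The members lay on both sides of 0, with 41 of 90 above it, and their median log2 fold change was 0.00. Of all features 47.9% lay above 0, and of those at 100 CPM or more 35.4%. The members ran from −0.24 to 0.29 and 0 of 90 reached an unadjusted p under 0.05 in either direction, where 3.3% of all features were higher and 2.03% lower. RPS19BP1, a binding partner of RPS19 and regulator of SIRT1 in human cells that the name rule takes in, had the smallest p, with a log2 fold change of −0.21 ± 0.19 (adjusted p = 0.9996 by edgeR). RPS16, a small subunit protein, followed at −0.17 ± 0.17 (adjusted p = 0.9996). It read 906, 475, 624 and 617 CPM in controls, 655, 615, 575, 631 and 588 CPM at the medium dose and 772, 531, 556, 568 and 492 CPM at the high dose. The first control and the first high dose library were the highest of their groups, and the groups overlapped.

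The intervals in cormorant were wider than in quail, with a median SE of 0.179 for the members against 0.112 in quail. Control replicate 1 was above the control median for 89 of 90 members, control replicate 2 for 3 of 90 and high dose replicate 1 for 88 of 90. Among members at 100 CPM or more, the median coefficient of variation was 30.3% in cormorant controls, 7.53% at the medium dose and 17.04% at the high dose, while other features of that level had 17.1, 8.94 and 15.1%. RPL5 shows it with 2297, 1130, 1560 and 1549 CPM in the controls against 2147, 1580, 1512, 1451 and 1668 CPM at the high dose. The number of members above 0 at the high dose was 88 of 90 without control replicate 1, 62 without high dose replicate 4, 18 without control replicate 3, 7 without high dose replicate 1 and 3 without control replicate 2. The columns of control 1 and high dose 1 carry another leading number than the rest, and all control columns have another prefix than the exposed ones, so that whatever the prefix stands for and exposure cannot be told apart in cormorant. Without the 2 libraries of that number, 80 of 90 members lay above 0 at the high dose and 86 of 90 at the medium dose.

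At the medium dose in cormorant 10 of 90 members lay above 0, against 48.8% of all features, with a median log2 fold change of −0.06, and no member was called where 0.048% of features were. Features of 100 CPM or more also lay mostly below 0 in this comparison, with 24.7% above it. No member reached an unadjusted p under 0.05, where 2.78% of features were higher and 2.93% lower. RPL3L had the largest estimate, at −0.68 ± 0.53 (adjusted p = 0.879 by edgeR), but only 122 reads over all cormorant libraries. The estimate of 40S ribosomal protein S29, with 75852 reads, was −0.25 ± 0.20 (adjusted p = 0.884 by edgeR). In the high against the medium dose, 72 of 90 members lay above 0, against 50% of all features and 64.6% of those at 100 CPM or more. Neither a member nor any other feature passed (0%). At an unadjusted p under 0.05, 315 features (2.16%) were higher and 160 (1.1%) lower, no member among them. These counts too turned on single libraries. At the medium dose they were 2 without control replicate 2, 27 without medium dose replicate 3 and 86 without control replicate 1, and in the high against the medium dose 14 without high dose replicate 1.

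The difference between the species in their response to the high dose was tested directly, as the quail log2 fold change less that of cormorant. No member was called, where 1.21% of the 15596 shared names were, and 82 of 93 members lay above 0 against 51.3% of all names. Of these 93, 88 were also tested in each species alone. The others had few reads in 1 species, so that side of their difference rests on almost no data. In quail these were RPS3 (83 reads) and 60S ribosomal protein L37 like (104). In cormorant they were 40S ribosomal protein S23 (25), 60S ribosomal protein L13 like (36) and 60S ribosomal protein L19 like (2). All counts of 93 include them. Names of 100 CPM or more were above 0 in 60.1%. The median difference was 0.15, and 0 members reached an unadjusted p under 0.05, where 6.33% of names were higher and 5.48% lower. RPS16 had the smallest p among members, with a difference of 0.33 ± 0.20 (95% interval −0.09 to 0.74, adjusted p = 0.583 by edgeR), and the difference for RPL5 was 0.28 ± 0.21 (−0.15 to 0.71). Without cormorant control replicate 1 the count above 0 was 16 of 93, and without any other single library it was 73 to 89. For the medium dose the difference was above 0 for 80 of 93 members, against 50.1% of all names, with no call among members or among all names (0%), where 489 names (3.14%) were higher and 541 (3.47%) lower at an unadjusted p under 0.05. Without cormorant control replicate 1 that count was 9 of 93, and names of 100 CPM or more were above 0 in 68.0%.

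A few members did not follow the group but split the libraries within each group. In quail RPS6, the small subunit protein that mTOR signalling phosphorylates, read 1398, 1491, 851, 1420 and 1411 CPM in controls, 682, 1629, 1697, 1535 and 870 CPM at the medium dose and 1472, 845, 1877, 993 and 1651 CPM at the high dose. Control 3, medium dose 1 and 5 and high dose 2 and 4 lay between 682 and 993 CPM and the other 10 libraries between 1398 and 1877 CPM. RPS23, a protein of the decoding centre, was split at the same libraries, from 249 to 391 CPM against 505 to 607 CPM, as was the second name of that protein, 40S ribosomal protein S23, from 182 to 274 CPM against 382 to 446 CPM. 60S ribosomal protein L17 also split there, with 350 to 603 CPM against 845 to 1116 CPM. RPL37 did not, since its ranges of 231 to 381 and 280 to 462 CPM overlapped. At the high dose the log2 fold changes of these members carried wide errors, with 0.06 ± 0.27 for RPS6, −0.08 ± 0.27 for RPS23 and 0.09 ± 0.29 for 60S ribosomal protein L17.

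The same 5 quail libraries were those with reads of features named for the W chromosome. Histidine triad nucleotide binding protein W had 1508, 1895, 1165, 2328 and 2822 reads in them and 0 to 3 reads in the other 10, and spindlin 1 W had 38, 22, 15, 22 and 38 reads against 0. In birds males carry a pair of Z chromosomes and females 1 Z and 1 W, and in chicken the dosage of Z genes is only partly equalised. The RefSeq annotation of quail (Coturnix japonica 2.1) puts RPS6, RPS23 and RPL37 on the Z chromosome. Over a list of 32 Z-linked features, the median ratio to the average library was 0.871 to 0.957 in those 5 libraries and 1.01 to 1.09 in the others. The widest gap between libraries fell at the same place and side for 86 of 14927 features, or 0.576%, 4 of them members, and on the opposite side for 8. These libraries were picked out by their values, so the split is a description with no test, and the labels give no sex.

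**Figure D4:**
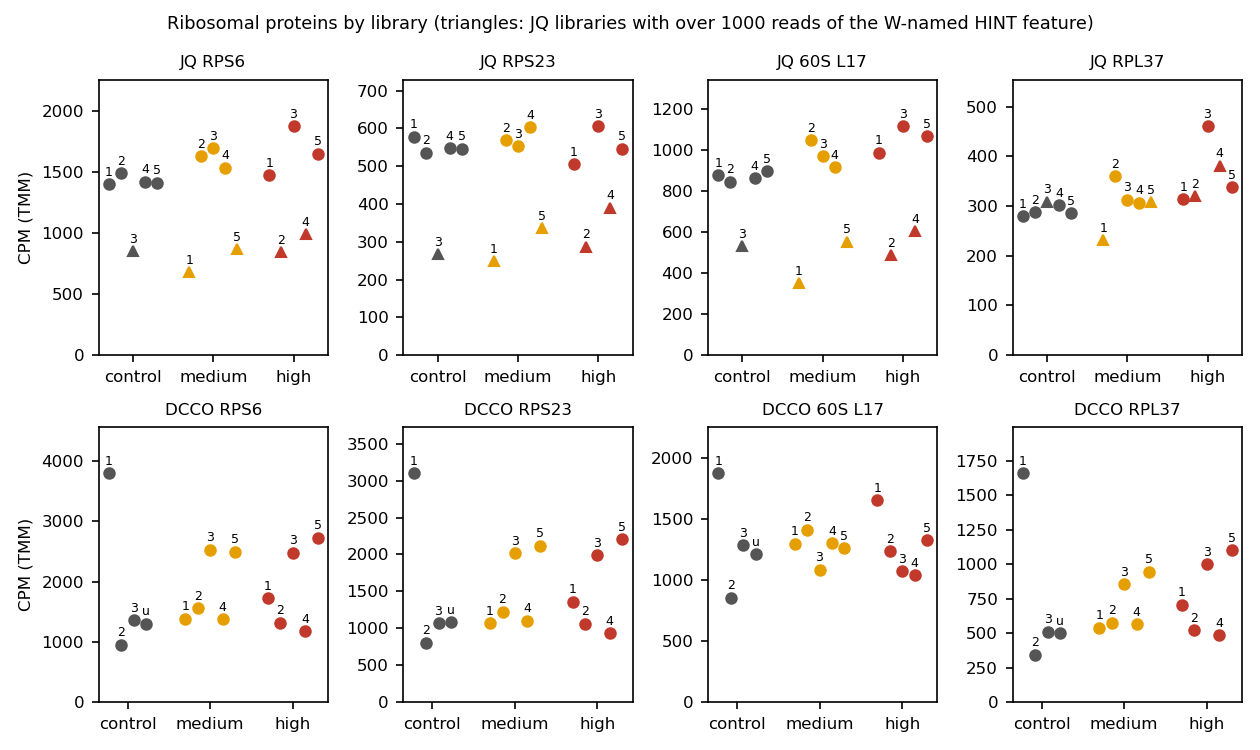
Level in CPM of RPS6, RPS23, 60S ribosomal protein L17 and RPL37 in each library of quail and cormorant by dose group, with triangles for the 5 quail libraries that have over 1000 reads of the W-named histidine triad feature. In quail RPS6 is at 682 to 993 CPM in the triangles and 1398 to 1877 CPM elsewhere.

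Cormorant libraries split in RPS6, RPS23 and RPL37. RPS6 read 3793, 953, 1355 and 1301 CPM in controls, 1386, 1559, 2527, 1381 and 2495 CPM at the medium dose and 1724, 1321, 2479, 1174 and 2725 CPM at the high dose. Control 1, medium dose 3 and 5 and high dose 3 and 5 were the high libraries. RPS23 read 3100, 810, 1071 and 1084 CPM in controls, 1076, 1228, 2022, 1107 and 2118 CPM at the medium dose and 1361, 1067, 1990, 939 and 2205 CPM at the high dose, with the same 5 libraries above all others. RPL37 read 1660, 347, 513 and 503 CPM in controls, 541, 577, 857, 568 and 947 CPM at the medium dose and 708, 525, 999, 485 and 1100 CPM at the high dose. A second name, 60S ribosomal protein L37 like, ran opposite, with 18, 7, 14, 11 and 11 reads in the 5 libraries and 78 to 213 reads in the other 9. The widest gap fell at these libraries on the side of RPS6 for 128 of 14579 features, or 0.878%, and on the opposite side for 35. The 32 features that are Z-linked in quail had a median ratio of 1.06 to 1.19 in 4 of the 5 libraries but 0.923 in control 1, and of 0.841 to 1.02 in the other 9. No cormorant annotation was used to place them. No W-named histidine triad feature was among the cormorant names used here, and whether the split follows sex was not tested.

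Unexposed livers were set side by side across the species, with the caution that species, embryo day and the assignment of reads to names cannot be told apart and that each table was scaled on its own. Of the 88 members tested in both, 38 (43.2%) were higher in cormorant controls without overlap and 7 (7.95%) higher in quail, where 31.4% and 25.6% of all 12355 names tested in both were. The mean was higher in cormorant for 76 of the 88, with a median ratio of 1.51 beside 1.07 over all names. With all names of a protein summed, 36 of 83 proteins were higher in cormorant and 4 in quail. With names summed, RPS27A had the widest ratio toward cormorant, with 210 CPM ± 6.24 (SD, n = 5) in quail and 1346 CPM ± 267 (n = 4) in cormorant, a ratio of 6.42, followed by RPS26 at 264 CPM ± 25.3 and 1032 CPM ± 426. Among single names RPL10 came between them, at 272 CPM ± 18.0 and 1419 CPM ± 412 (ratio 5.21), but its reads were shared with 60S ribosomal protein L10 in unequal parts in each species. The proteins higher in quail were RPS9 (ratio 0.675), RPL28 (0.523), RPS19BP1 (0.435) and RPS27 (0.0580).

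**Figure D5:**
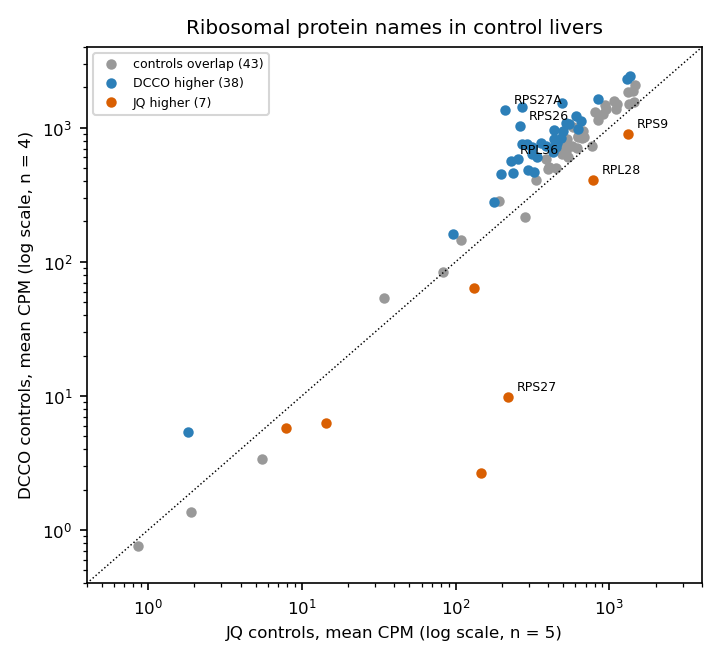
Mean level in CPM of the 88 members tested in both species in quail controls (x axis) and cormorant controls (y axis), both log scales, with the line of equal level. Of the points, 38 are higher in cormorant without overlap, 7 higher in quail and 43 overlap.

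Several ratios rest on which name received the reads. Quail had 66551 reads of RPS27 and cormorant 1898, while the paralogue RPS27L had a mean of 196 CPM ± 13.2 (SD, n = 5) in quail controls and 454 CPM ± 141 (n = 4) in cormorant controls. RPS23 was split in quail into 57.7% under RPS23 and 42.3% under 40S ribosomal protein S23, while cormorant had 25 reads of the second name. RPS3 had 83 reads in quail, where 40S ribosomal protein S3 held 273036, and cormorant had 380866 under RPS3. In quail 60S ribosomal protein L10 took 83.1% of the reads of that protein and RPL10 the remaining 16.9%, against 51.2 and 48.8% in cormorant. In total, 15 proteins of quail and 13 of cormorant were counted under more than 1 name. The 7 untested members of quail had 6 to 104 reads over 15 libraries and the 9 of cormorant 1 to 68 reads, and each of these proteins was tested under another name or is a paralogue.

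The other genes of the translation apparatus in quail at the high dose were described in the same way, beside the shares of all features, which were 51.4% above 0, 9.35% higher and 7.26% lower at an unadjusted p under 0.05 and 3.56% called. Of 53 ribosome biogenesis factors 44 lay above 0, with a median log2 fold change of 0.18, 17 higher and 2 lower at an unadjusted p under 0.05 and 1 called. This was NPM1 (nucleophosmin, a nucleolar chaperone), which rose with a log2 fold change of 0.43 ± 0.11 (adjusted p = 0.0480 by edgeR). Of 10 elongation factors 9 lay above 0 with a median of 0.24, 5 higher at an unadjusted p under 0.05 and 0 called. EEF2, which drives translocation of the ribosome, had a log2 fold change of 0.43 ± 0.15 (adjusted p = 0.147). Among 14 other transcripts with a terminal oligopyrimidine tract 11 lay above 0 with a median of 0.22, and 0 were called.

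Of 52 initiation factors 38 lay above 0 with a median of 0.11, against 51.4% of all features. At an unadjusted p under 0.05, 13 were higher and 2 lower, where 9.35% and 7.26% of all features were. Those called were 1 higher and 1 lower, close to the 3.56% of all features called. EIF3D, a subunit of the factor that binds the 40S subunit, rose (log2 fold change 0.36 ± 0.09, adjusted p = 0.0429 by edgeR). EIF2AK2, the double-stranded RNA kinase PKR that halts initiation, fell by 1.23 on the log2 scale (adjusted p = 0.0107). Of the mitochondrial ribosomal proteins 41 of 82 lay above 0, with a median of 0.01, and 1 was called, a share below that of all features. The 1 called was MRPL28, which rose with a log2 fold change of 0.67 ± 0.11 (adjusted p = 0.00229 by edgeR). It stood at 148 CPM ± 14.7 (SD, n = 5) in controls and 236 CPM ± 35.0 (n = 5) at the high dose. The 19 mTOR signalling genes had 8 above 0 and 0 called. Of 7 integrated stress response genes 3 lay above 0 with a median of −0.06, and at an unadjusted p under 0.05 0 were higher and 1 lower. The 1 called was ATF4, the effector of that response, which fell by 0.62 (adjusted p = 0.0335 by edgeR). Of 13 p53 targets 11 lay above 0 with a median of 0.16, and at an unadjusted p under 0.05 3 were higher and 1 lower. The 1 called was GADD45A, a growth arrest gene, which rose by 0.81 (adjusted p = 0.00108 by edgeR). The calls of MRPL28, EIF2AK2 and GADD45A stayed under 0.05 in the 24 alternatives run. The call of EIF3D ended without any 1 control, without medium dose 2, 4 or 5 and without high dose 3, 4 or 5 (highest adjusted p 0.116). That of NPM1 ended without control 1, 2, 4 or 5, any medium dose library and high dose 3, 4 or 5 (0.124). That of ATF4 ended without control 1, 2 or 4 and without high dose 1, 3, 4 or 5 (0.0943), and all 3 ended when only the groups compared were fitted. EIF3D and NPM1 also missed the threshold with no filter on low counts, with voom and without the 3 quail libraries highest in gut markers (adjusted p 0.0511 to 0.0639). NPM1 (0.0610) and ATF4 (0.0517) missed it with the W-named feature as a covariate, and ATF4 with the replicate block (0.0522). In cormorant at the high dose 47.9% of all features and 35.4% of those at 100 CPM or more lay above 0, and 0.0343% were called. None of these lists held a called gene, with 20 of 56 biogenesis factors, 2 of 9 elongation factors and 28 of 88 mitochondrial ribosomal proteins above 0. Cormorant controls spread widely, with elongation factors summing to 21638 CPM in control 1 and 12335 CPM in control 2, without the TMM scaling. How far these list counts turn on single libraries was not tested.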

How the data were processed

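The authors deposited 1 table of read counts per species; the file names refer to Seq2Fun and a database of all birds, and the submitters' processing notes list edgeR with no role. The labels' protocols give paired reads of 101 bases. No genome build is named in those sources, so no coordinates are printed. The columns were matched to labels by name, and 1 cormorant control column carries a number that matches no replicate and is called unnumbered.

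Counts were tested with edgeR 4.0.16 in R 4.3.3 (TMM, filterByExpr with a minimum count of 10 and total of 15, robust quasi-likelihood fit, all libraries of a species in 1 model, threshold 0.05), and alternatives used DESeq2 1.42.0 and limma 3.58.1 (voom). SE is the log2 fold change divided by the root of F. Scripts were tested on simulated data. Intervals cover the spread between libraries, and reads without molecular identifiers may include PCR copies. Feature lengths are not in the tables, so levels are not ranked between members. Printed per library are some members with the smallest p, RPLP0, the paralogues RPL22L1 and RPS27L and, chosen after their values were seen, some that split the libraries. Members and lists were chosen with earlier results of these data known. The values of 1 small subunit member are not reported here.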

Additional observations from a re-analysis of the deposited data

Results flagged for a closer look

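Among 105 groups of 4 or 5 values looked at, 19 held a library far from the others of its group by Dixon's ratio. Chance gives about 1 group in 20. The groups include members chosen because they split the libraries, so the number of flags cannot be set against that rate. Members also share libraries, so the flags are not independent. In quail, control replicate 3 stood low for RPS6 (851 CPM), RPS23 (267 CPM), 40S ribosomal protein S23 (197 CPM) and 60S ribosomal protein L17 (532 CPM), and high for RPL5 (971 CPM). It is the control with reads of the W-named features. RPL22L1 was high in control 2 (107 CPM), and 60S ribosomal protein L7 like 1 was low in control 1 (53.2 CPM) and medium dose 5 (61.3 CPM). Medium dose 1 was low for RPL23A (408 CPM) and RPS16 (352 CPM), and high dose 4 was high for RPS27L (218 CPM).

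In cormorant 5 of the flags fell on control 1, which was high for RPS6 (3793 CPM), RPS23 (3100 CPM), RPL37 (1660 CPM) and RPL22L1 (259 CPM) and low for 60S ribosomal protein L37 like (1.48 CPM). High dose 1 was high for RPLP0 (2117 CPM) and RPS16 (772 CPM), and medium dose 3 was low for RPL26L1 (643 CPM). The cause of these values was not tested.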

How the results depend on the processing

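The median log2 fold change of the members ranged over the alternatives from 0.09 to 0.19 for the quail high dose and from −0.15 to 0.21 for the cormorant high dose, where its sign was not stable. The SD between libraries of 1 group in the mean member level, on the log2 scale, was 0.14 in quail and 0.25 in cormorant. Members called stayed at 0 except for the quail high dose, with 2 by DESeq2 and 0 to 1 when single libraries were left out. Features called were more sensitive. With DESeq2 they numbered 974 for the quail high dose, 6 for the medium dose and 614 for high against medium, 62, 54 and 4 in cormorant, and 361 and 22 for the species differences at the high and medium dose. Without single libraries they ran from 303 to 659 and, for high against medium, 166 to 391 in quail, from 2 to 14, 6 to 16 and 0 to 1 in cormorant and from 0 to 1 for the species difference at the medium dose. With only the groups compared there were 128 for quail high against medium and 2 for the cormorant high dose, which had 3 with no filter on low counts, 13 with ubiquilin 1 like as a covariate and 16 without the 2 libraries of number 6. Without the 3 quail libraries highest in gut markers the species differences gave 298 and 3.

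Same-numbered libraries correlated from −0.12 to 0.15 in quail and from −0.12 to 0.39 in cormorant. The correlation was over 0.1 in 2 of 15 quail pairs and in 6 of 11 cormorant pairs. The main fits did not take the numbers as pairs, and in cormorant these values do not settle whether they are. With a replicate block there were 187 calls for quail high against medium, 2 and 1 for the cormorant high and medium dose and 94 for the species difference, and RPS6 and RPL37 at the cormorant high dose turned to −0.046 and −0.032.

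The members above 0 moved in cormorant. At the medium dose they were 16 with no filter, 31 with voom, 51 with the block and 86 without the number 6 libraries (2 to 86 without single libraries). At the high dose they were 80 without the number 6 libraries (3 to 88), and for high against medium 14 (14 to 85). The species differences gave 16 to 89 at the high dose and, at the medium dose, 9 without the number 6 libraries (9 to 89).

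These members turned sign under an alternative, some of them with estimates among the larger of their comparison. For the quail high dose, RPS23 and 40S ribosomal protein S23 were 0.12 and 0.13 with the W-named feature as a covariate and 0.012 and 0.00889 without the gut marker libraries. Without single libraries RPS6 ran from −0.083 to 0.19, RPS23 from −0.25 to 0.049, 40S ribosomal protein S23 from −0.23 to 0.070 and 60S ribosomal protein L17 from −0.036 to 0.23. For the cormorant high dose RPS23 was 0.0056 with no filter, 0.14 with voom and 0.65 without the number 6 libraries, 40S ribosomal protein S30 like was 0.032 without them, and RPS6 was −0.00911 with the ubiquilin covariate. Without single libraries RPS16 ran from −0.30 to 0.038, 40S ribosomal protein S30 like from −0.31 to 0.10, RPL29 from −0.22 to 0.058, RPS23 from −0.22 to 0.62, RPS6 from −0.20 to 0.65 and RPL37 from −0.24 to 0.75. For the cormorant medium dose 40S ribosomal protein S29, RPL29 and RPL28 were 0.026, 0.00578 and 0.092 without the number 6 libraries and ran from −0.42 to 0.027, −0.27 to 0.0060 and −0.36 to 0.092 without single libraries. The species difference of RPL28 at the medium dose was −0.019 without the number 6 libraries and ran from −0.019 to 0.44, and that of 60S ribosomal protein L19 like from −1.70 to 0.078. The latter name had only 2 reads over all cormorant libraries. Of these, 1 was in medium dose 2, the library whose removal turned the sign, so its values carry no information on a species difference. The covariates, the number 6 libraries and the gut marker libraries were chosen after seeing the data, and the cause of these changes was not tested.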
